A study of Mus musculus with 6 samples.

Results

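The carbonic anhydrase genes of C2C12 cells were followed through a knockdown of Usf2. C2C12 is a mouse line of myoblasts, muscle precursors that stop dividing and fuse into myotubes when they differentiate, and Usf2 encodes an E-box-binding transcription factor of the USF family. The series compared myoblasts that received an siRNA against Usf2 (siUsf2 1 to 3) with myoblasts that received the negative control siRNA siRNA-NC (siControl 1 to 3). All 6 libraries are from C2C12 cells of WT genotype grown in medium with serum and transfected with lipofectamine, and the time between transfection and harvest is not given in the sources used here. The members are the 10 genes Car2, Car3, Car4, Car5b, Car8, Car9, Car11, Car12, Car13 and Car14, found by symbol among the 55414 gene identifiers of the count table. The family was chosen by results of this same comparison, in which Car3 and Car9 stood out, so the differences between siUsf2 and siControl below are descriptions and carry no test of their own.

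Carbonic anhydrases are zinc enzymes that interconvert carbon dioxide and water with bicarbonate and a proton. The family is sorted by where the enzyme sits. Car2, Car3 and Car13 are cytosolic, Car5b is mitochondrial, Car9, Car12 and Car14 span the plasma membrane with the catalytic site outside the cell, and Car4 is held on the outer surface by a lipid anchor. Car8 and Car11 are carbonic anhydrase-related proteins that lack the catalytic activity. In muscle, CAR3 is an abundant protein of slow fibres, and CAR9 is a textbook product of the hypoxia-inducible factor HIF1.

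Usf2 itself checks the labels. It was at 17.1 and 15.3 CPM (a gene's count after scaling every library to the same total) in siUsf2 1 and 2, against 26.2, 31.2 and 23.0 CPM in siControl 1 to 3, and the edgeR quasi-likelihood test gave a log2 fold change of -0.74 (SE 0.14, adjusted p = 6.43e-04). In the library labelled siUsf2 3, Usf2 stood at 30.8 CPM, inside the range of siControl and against the label. That library has 3414565 counts, and the others have 14790997 to 17715250. Earlier results of these data also showed it apart in its share of pseudogenes, which is not given here. The main comparison is therefore siUsf2 1 and 2 against siControl 1 to 3 (5 libraries), with the library labelled siUsf2 3 shown apart. Some results are also given with that library added (6 libraries). Over 6 libraries the edgeR estimate for Usf2 was -0.40 on the log2 scale (SE 0.28), which did not pass (adjusted p = 0.702). All 5 myoblast markers (Myod1, Myf5, Des, Cdh15 and Chrna1) were detected in each library. They summed to 1919 to 2056 CPM in siUsf2 1 and 2, 2560 CPM in the library labelled siUsf2 3 and 2488 to 2957 CPM in siControl. Their levels were not steady. Over 5 libraries 4 were lower (Chrna1 -0.77, Cdh15 -0.75, Des -0.35 and Myod1 -0.29 on the log2 scale) and Myf5 was higher (0.37). Each passed at an edgeR adjusted p below 0.05. Of all genes tested over 5 libraries, 4.97% were higher and 6.4% lower at that threshold. Marker lists of other cells that use carbonic anhydrases summed to at most 4.69 CPM in any library (adipocyte, erythroid, osteoclast, macrophage, endothelial and epithelial lists). The RNA is from whole cultures, so fewer cells of a type and less RNA per cell cannot be told apart.

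Promoter sequences were searched for the E-box that USF proteins bind (CACGTG). They were also searched for the core of the hypoxia response element that HIF binds (ACGTG or GCGTG). RefSeq windows of 250 bases before to 50 bases after the gene start, on GRCm38.p6, were at hand for 6 members: Car4, Car5b, Car9, Car11 (a pair of windows), Car12 and Car14. The windows of Car9 and Car5b are shown, since both genes were called higher in the 5-library comparison. The letters of a match, read on either strand, are in capitals. The Car9 window is chr4:43506776-43507075, plus strand, and the Car5b window is chrX:164027961-164028260, minus strand, both written along the gene.
Car9: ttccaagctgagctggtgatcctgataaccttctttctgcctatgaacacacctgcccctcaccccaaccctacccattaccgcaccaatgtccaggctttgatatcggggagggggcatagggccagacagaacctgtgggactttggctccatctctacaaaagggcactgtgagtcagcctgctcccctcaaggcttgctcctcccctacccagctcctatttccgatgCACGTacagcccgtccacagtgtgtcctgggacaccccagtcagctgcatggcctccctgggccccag
Car5b: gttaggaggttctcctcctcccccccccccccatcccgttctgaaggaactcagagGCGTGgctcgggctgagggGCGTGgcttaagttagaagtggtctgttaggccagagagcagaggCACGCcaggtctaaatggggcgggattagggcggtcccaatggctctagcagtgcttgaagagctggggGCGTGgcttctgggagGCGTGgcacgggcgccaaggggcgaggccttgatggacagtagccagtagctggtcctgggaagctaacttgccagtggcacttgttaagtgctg

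The Car9 window holds 1 ACGTG on the opposite strand. Its leftmost base, as the window is written above, is at -18 from the RefSeq start. The Car5b window holds 5 GCGTG, placed by the leftmost base in the same way. Of these, 4 are on the gene strand at -194, -175, -61 and -45 and 1 is on the opposite strand at -130. Among the 6 members with a window, ACGTG was found in 3 (Car4, Car9 and Car14), against 19.6% of all 32851 promoter windows in the table. GCGTG was found in 2 members (Car5b and Car11), against 32.4% of all windows. The full E-box CACGTG, which contains ACGTG, was in 0 of the 6 members and in 7.15% of all windows. A match describes these letters only and is not a bound site, and no match says nothing of binding elsewhere.

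Levels can be compared between genes only per length, so they are given here as CPM per kb of exonic length. In siUsf2 1 and 2, Car13 led at 90.3 ± 0.910 CPM per kb (SD, n = 2), followed by Car3 at 30.1 ± 1.56, Car9 at 22.7 ± 1.33 and Car5b at 9.66 ± 1.67 CPM per kb. In siControl, Car3 and Car13 shared the lead, at 65.9 ± 2.89 and 65.2 ± 2.88 CPM per kb (SD, n = 3), and Car13 was above Car3 in siControl 3. Car9 at 8.66 ± 1.31 and Car5b at 7.44 ± 0.146 CPM per kb came next in siControl, with ranges that overlapped. The 4 leading genes of siUsf2 1 and 2 did not overlap with one another.

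The lower places held the same genes in both groups. Car11 was at 3.89 ± 0.630 CPM per kb in siUsf2 1 and 2 and 4.45 ± 0.287 CPM per kb in siControl, and Car2 at 3.22 ± 0.644 and 3.81 ± 0.308 CPM per kb. Car11 and Car2 changed places between siUsf2 1 and 2, while in siControl Car11 lay above Car2 in each library. Car8 was at 1.01 ± 0.126 and 0.738 ± 0.0869 CPM per kb, Car12 at 0.805 ± 0.179 and 0.515 ± 0.135 CPM per kb, and Car14 at 0.231 ± 0.0456 and 0.124 ± 0.105 CPM per kb in siUsf2 1 and 2 and in siControl. Car4 had 0 counts in all 6 libraries, and 3 counts, the limit that a 0 allows, equal 0.879 CPM in the shallow library labelled siUsf2 3 and 0.169 CPM in siControl 3.

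**Figure D1:**
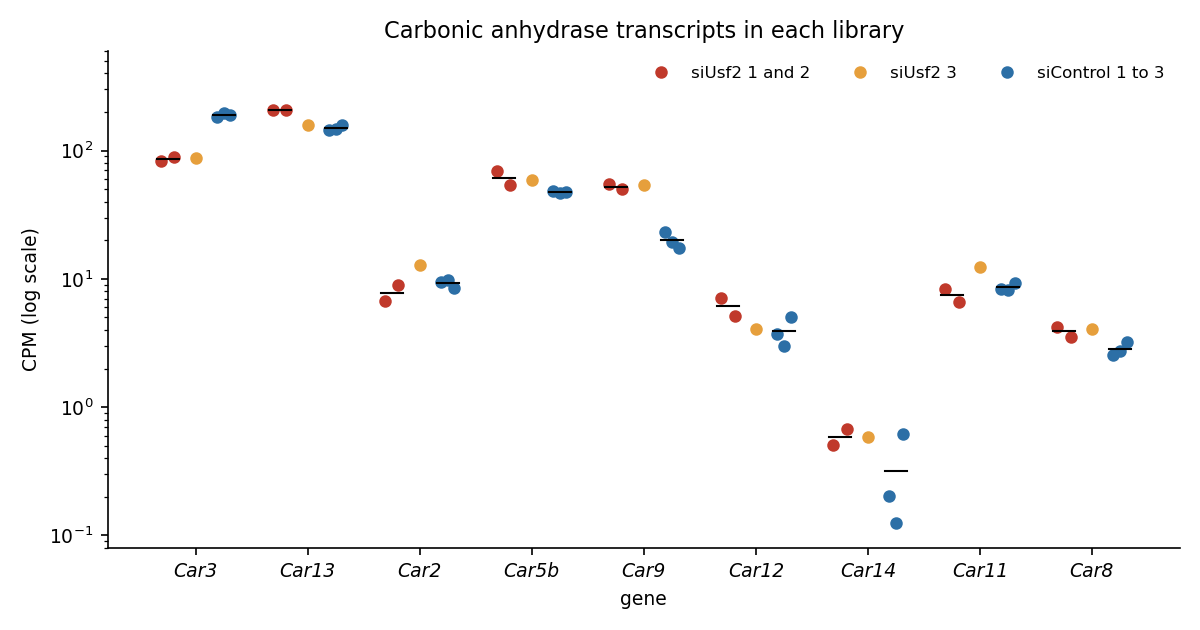
CPM (log axis) of the 9 detected members in each library, with siUsf2 1 and 2 in red, the library labelled siUsf2 3 in orange and siControl 1 to 3 in blue, and group means as black lines. The red and orange Car3 points, 83.1 to 89.5 CPM, lie below the blue ones at 181 to 198 CPM, and the red and orange Car9 points, 50.1 to 54.4 CPM, lie above the blue ones at 17.3 to 23.3 CPM.

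Among the cytosolic enzymes, Car3 was the member that was lower in siUsf2. CAR3 has low carbon dioxide hydration activity for its family and is carried in large amounts by slow muscle fibres, adipocytes and liver. Car3 was at 83.1 and 89.5 CPM in siUsf2 1 and 2, 87.9 CPM in the library labelled siUsf2 3, and 181, 198 and 188 CPM in siControl 1 to 3. All siUsf2 libraries lay below all siControl libraries, and the library labelled siUsf2 3 lay between the other siUsf2 libraries. The edgeR log2 fold change was -1.14 (SE 0.09, 95% interval -1.33 to -0.96) over 5 libraries, or 0.453 times the siControl level, and -1.15 (SE 0.08, interval -1.34 to -0.97) over 6.

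The markers of muscle differentiation moved with Car3. All 10 of the list (Myog, Mymk, Mymx, Acta1, Ckm, Myh3, Myl4, Tnni1, Tnnc1 and Mb) were called lower over 5 libraries, against 6.4% of all genes tested. The median log2 fold change was -2.27 for the 10 markers and -0.01 over all genes tested. Their summed level was 910 to 1030 CPM in siUsf2 1 and 2, 1865 CPM in the library labelled siUsf2 3 and 4130 to 4427 CPM in siControl. In these markers siUsf2 3 thus lay above siUsf2 1 and 2, while in Car3 it was level with them. The part of differentiation in the Car3 difference was not tested. Adipocyte markers were near 0, with a sum of 0.201 to 0.569 CPM in siUsf2 1 and 2, 0.293 CPM in the library labelled siUsf2 3 and 0 to 0.135 CPM in siControl.

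Car13, a cytosolic isozyme, had the most CPM of the family in every siUsf2 library. It was at 206 and 209 CPM in siUsf2 1 and 2, 159 CPM in the library labelled siUsf2 3, and 144, 148 and 157 CPM in siControl 1 to 3. siUsf2 1 and 2 lay well above siControl, while the library labelled siUsf2 3 lay just above the highest siControl library. The log2 fold change was 0.46 (SE 0.09, interval 0.28 to 0.63) over 5 libraries and 0.32 (SE 0.14, interval -0.03 to 0.68) over 6.

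Car2, the fast and widely expressed cytosolic form, was at 6.70 and 8.91 CPM in siUsf2 1 and 2, 12.9 CPM in the library labelled siUsf2 3, and 9.40, 9.87 and 8.41 CPM in siControl 1 to 3. The groups overlapped, and the library labelled siUsf2 3 held the highest value. Its log2 fold change over 5 libraries was -0.25 (SE 0.20), and the interval of -0.66 to 0.15 leaves room for a level about as low as 0.633 or as high as 1.11 times that of siControl.

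Car13, Car3 and Car2 lie in 1 cluster on chromosome 3 (GRCm38), all on the plus strand. Car13 occupies 14641727 to 14663002, Car3 14863512 to 14872523 and Car2 14886273 to 14900770, with Car1 (14766216 to 14808368, minus strand) between Car13 and Car3. Car13 ends 200509 bp before Car3 starts, and Car3 ends 13749 bp before Car2 starts. Car1, the red cell isozyme, had 0 counts in each siUsf2 library and 3, 0 and 1 counts in siControl 1 to 3. The processed pseudogene Gm16399, inside the span of Car1, reached 321 counts in a library, and Gm5843 had none. In this cluster Car13 was called higher, Car3 lower and Car2 in neither direction over 5 libraries.

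Because Car3 and Car13 are measured in the same library, their ratio does not depend on library size. The ratio of Car3 to Car13 counts was 0.403 and 0.428 in siUsf2 1 and 2, 0.554 in the library labelled siUsf2 3, and 1.25, 1.33 and 1.20 in siControl 1 to 3. Car13 had more counts than Car3 in each siUsf2 library, and Car3 had more in each siControl library. Per kb the ratio was 0.324 and 0.344 in siUsf2 1 and 2, 0.444 in the library labelled siUsf2 3, and 1.01, 1.07 and 0.959 in siControl 1 to 3.

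**Figure D2:**
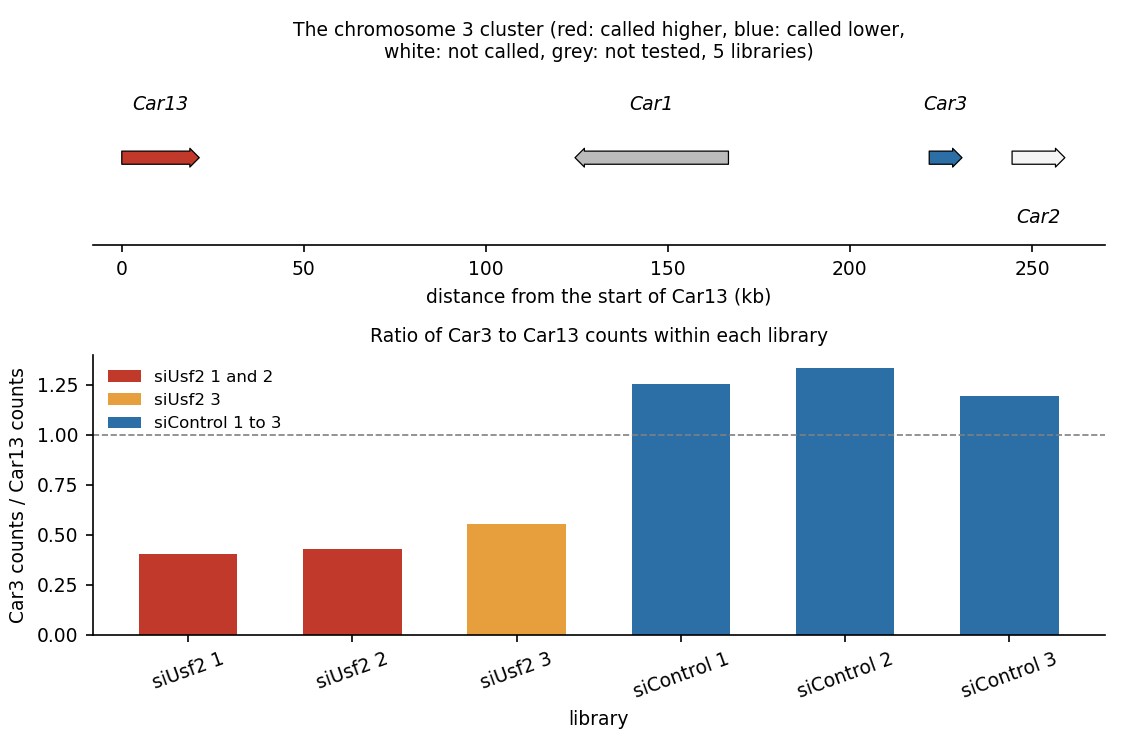
The upper panel maps the gene spans and directions of Car13, Car1, Car3 and Car2 by distance in kb from the start of Car13, coloured by the 5-library call. The lower panel shows the ratio of Car3 to Car13 counts in each library, 0.403 to 0.554 in siUsf2 1 to 3 and 1.20 to 1.33 in siControl 1 to 3, with a dashed line at 1.

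Car5b, the mitochondrial isozyme, supplies bicarbonate to carboxylases in the matrix. It lies on chromosome X at 163976822 to 164027997 on the minus strand. Car5b was at 68.8 and 53.8 CPM in siUsf2 1 and 2, 58.9 CPM in the library labelled siUsf2 3, and 48.1, 46.3 and 47.4 CPM in siControl 1 to 3. The siUsf2 libraries lay farther apart than the siControl libraries, without overlap between the groups. The log2 fold change was 0.36 (SE 0.11, interval 0.15 to 0.58) over 5 libraries and 0.32 (SE 0.11, interval 0.04 to 0.61) over 6. Car5b was no longer called without siUsf2 1 (log2 fold change 0.19), without siControl 1 (0.38) or without siControl 2 (0.35).

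Car9, the membrane enzyme with an outward catalytic site, had the largest fold change among the members. The gene lies on chromosome 4 at 43506966 to 43513729 on the plus strand. Car9 was at 54.4 and 50.1 CPM in siUsf2 1 and 2, 53.9 CPM in the library labelled siUsf2 3, and 23.3, 19.2 and 17.3 CPM in siControl 1 to 3. The siUsf2 libraries lay close together and all above siControl, the library labelled siUsf2 3 among them. The log2 fold change was 1.38 (SE 0.12, interval 1.13 to 1.63) over 5 libraries, or 2.60-fold, and 1.37 (SE 0.13, interval 1.04 to 1.70) over 6. The second interval lies far from 0, yet Car9 was not called over 6 libraries.

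The exons of Car9 share 214 bases, 9.29% of its exonic length, with the antisense gene Gm12454. Gm12454 was at 8.60 and 9.78 CPM in siUsf2 1 and 2, 6.15 CPM in the library labelled siUsf2 3, and 7.17, 3.94 and 5.02 CPM in siControl 1 to 3. The strand setting of the counting is not given in the sources used here, so reads of the pair cannot be told apart in the shared bases.

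Car12, a second membrane enzyme with an outward site, is on chromosome 9 at 66713686 to 66766845. Car12 was at 7.08 and 5.16 CPM in siUsf2 1 and 2, 4.10 CPM in the library labelled siUsf2 3, and 3.72, 3.00 and 5.02 CPM in siControl 1 to 3. siUsf2 1 and 2 were above siControl, siUsf2 2 by a small margin, and the library labelled siUsf2 3 lay within the siControl range. The log2 fold change was 0.62 (SE 0.26, interval 0.10 to 1.15) over 5 libraries and was not called. Without siControl 3 it was 0.87 and was called.

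Car9 exceeded Car12 in each library, by a ratio of counts of 7.69 and 9.71 in siUsf2 1 and 2, 13.1 in the library labelled siUsf2 3, and 6.25, 6.42 and 3.45 in siControl 1 to 3. Car14, a membrane isozyme on chromosome 3 outside the cluster (95897768 to 95904691, minus strand), had 8, 10 and 2 counts in siUsf2 1 to 3 and 3, 2 and 11 counts in siControl 1 to 3. It did not pass the filter on low counts, and the groups overlapped. Its exons share 445 bases with Aph1a on the opposite strand, which had 284 to 882 counts in a library, so its few reads are uncertain.

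The related proteins without catalytic activity were both low. Car8 (chromosome 4, 8143362 to 8239041), which in neurons binds the inositol trisphosphate receptor, was at 4.24 and 3.55 CPM in siUsf2 1 and 2, 4.10 CPM in the library labelled siUsf2 3, and 2.57, 2.75 and 3.22 CPM in siControl 1 to 3. The siUsf2 libraries were all above siControl on 14 to 67 counts a library, with a log2 fold change of 0.43 (SE 0.29, interval -0.16 to 1.02) over 5 libraries that was not called. Car11 (chromosome 7, 45699843 to 45704682) was at 8.35 and 6.63 CPM in siUsf2 1 and 2, 12.3 CPM in the library labelled siUsf2 3, and 8.32, 8.18 and 9.20 CPM in siControl 1 to 3. The groups overlapped, and the log2 fold change was -0.21 (SE 0.20, interval -0.61 to 0.20) over 5 libraries. As with Car2, the library labelled siUsf2 3 held the highest Car11 value of the 6.

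Of the 10 members, 8 passed the filter on low counts, and over 5 libraries 3 were called higher (Car5b, Car9 and Car13), 1 lower (Car3) and 4 were not called. A call is an edgeR adjusted p below 0.05, and among all 17217 genes tested 4.97% were called higher and 6.4% lower. Over 6 libraries, 0 of 8 were called higher and 1 lower (Car3) by edgeR, where 0.0% of 16662 genes were called higher and 0.042% lower. At an unadjusted p below 0.05 the 6-library comparison held 2 members higher and 1 lower, and 1753 genes in all, while DESeq2 called 296 genes higher and 410 lower and limma-voom 19 and 87, each with Car9 among the higher and Car3 among the lower. The median log2 fold change of the 8 was 0.40 over 5 libraries and 0.32 over 6, against -0.01 over all genes in both.

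Counted by separation alone, both of siUsf2 1 and 2 lay above every siControl library in 5 members (Car5b, Car8, Car9, Car12 and Car13) and below in 1 (Car3). The same held in 21.8% and 19.5% of all genes tested. With the library labelled siUsf2 3 added, 4 members were above (Car5b, Car8, Car9 and Car13) and 1 below, against 11.4% and 11.2% of all genes. Since this contrast chose the family, nothing is read from these counts.

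**Figure D3:**
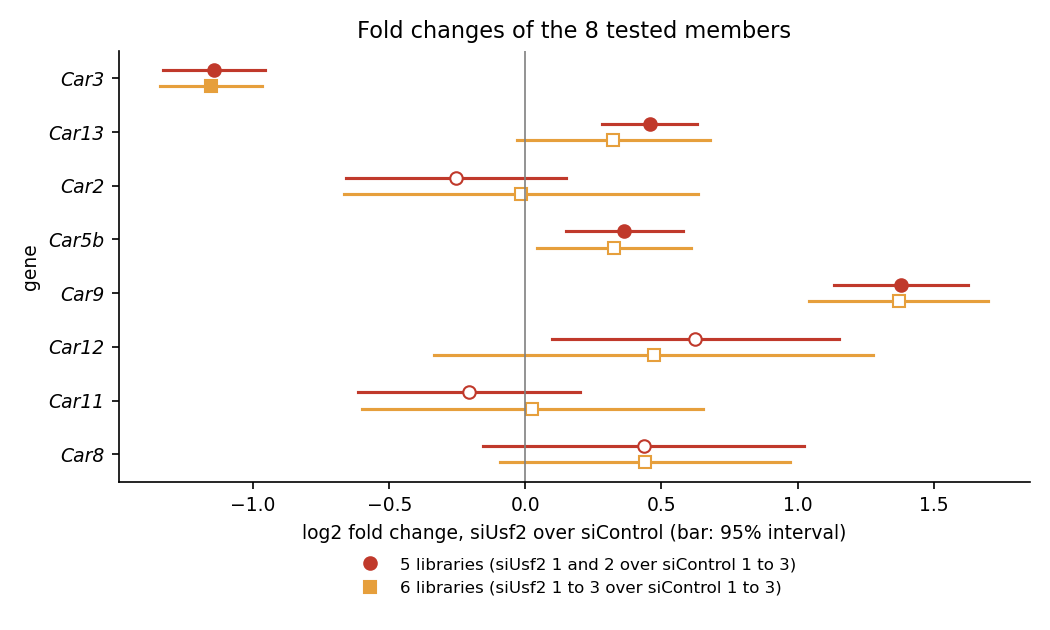
Log2 fold changes of siUsf2 over siControl for the 8 members tested, with 95% intervals, for 5 libraries (red circles) and 6 libraries (orange squares), filled where called at an edgeR adjusted p below 0.05. Car3 lies at -1.14 and -1.15 and Car9 at 1.38 and 1.37, nearly the same with and without the library labelled siUsf2 3, while Car2 and Car11 lie nearer 0 with it.

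The summed level of the family differed little in size between groups, while its make-up differed more. The members summed to 162 and 161 CPM per kb in siUsf2 1 and 2, 146 in the library labelled siUsf2 3, and 153, 159 and 159 CPM per kb in siControl 1 to 3. The mean was 162 ± 0.776 CPM per kb in siUsf2 1 and 2 (SD, n = 2) and 157 ± 3.26 CPM per kb in siControl (SD, n = 3). siUsf2 1 and 2 lay just above siControl and the library labelled siUsf2 3 below it, and with that library added the difference between the means had the other sign.

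Within that sum, the membrane enzymes held 15.2% and 14.1% in siUsf2 1 and 2, 16.6% in the library labelled siUsf2 3, and 6.97%, 5.55% and 5.30% in siControl 1 to 3. The cytosolic enzymes held 74.7% and 78.0% in siUsf2 1 and 2, 72.0% in the library labelled siUsf2 3, and 84.8%, 86.7% and 86.5% in siControl 1 to 3. Neither share overlapped between the groups, in any of the 6 libraries. Most of the membrane share was Car9, at 14.5%, 13.5% and 16.0% in siUsf2 1 to 3 and 6.60%, 5.27% and 4.73% in siControl 1 to 3. Car3, one of the cytosolic enzymes, held 17.9%, 19.4% and 21.0% of the family sum in siUsf2 1 to 3. In siControl 1 to 3 it held 41.3%, 43.5% and 41.3% of that sum. Car3 and Car9 stood out when the family was chosen, so both shares restate that choice and nothing is read from their separation. The mitochondrial share was 5.25% to 6.67% in the siUsf2 libraries and 4.60% to 4.95% in siControl. The share of the related proteins without activity overlapped, at 2.70% to 5.11% in siUsf2 and 3.13% to 3.53% in siControl.

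**Figure D4:**
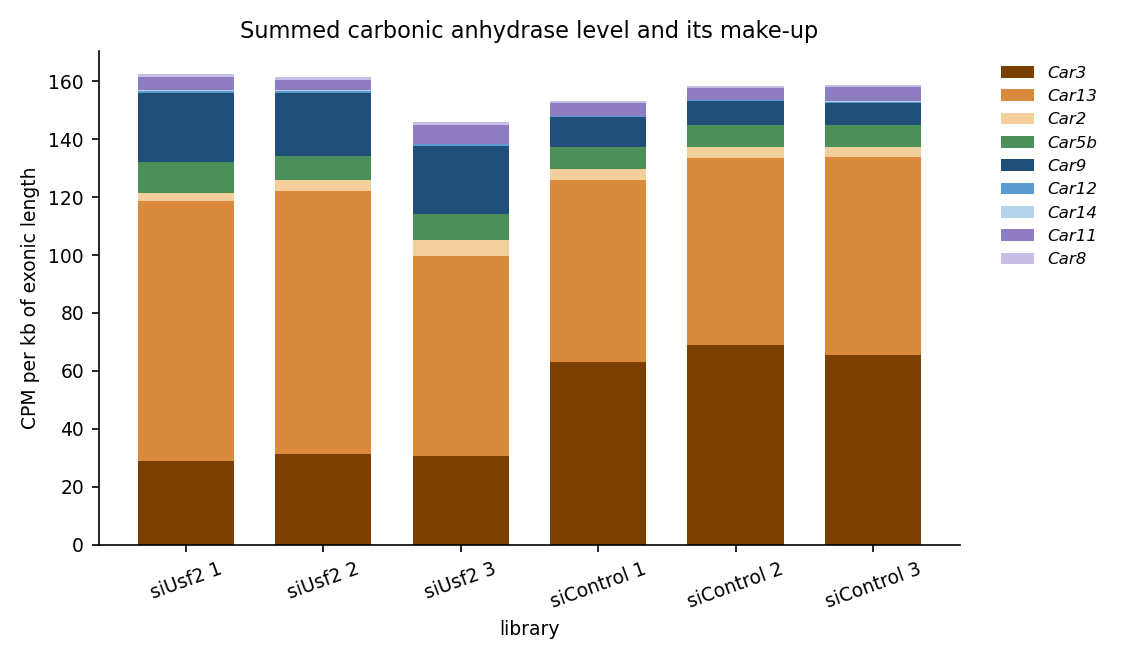
Stacked bars of CPM per kb of exonic length for the 9 detected members in each library. Bars end between 146 and 162 CPM per kb in siUsf2 1 to 3 and between 153 and 159 in siControl 1 to 3, with a narrower Car3 band and a wider Car9 band in the siUsf2 libraries.

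The other carbonic anhydrase genes were nearly silent. Car1, Car5a, Car6, Car7, Car10, Car15 and Ptprz1, a receptor phosphatase with a carbonic anhydrase-like domain, summed to 0.759 to 1.67 CPM in siUsf2 1 and 2, 0.293 CPM in the library labelled siUsf2 3 and 0.395 to 1.06 CPM in siControl. None passed the filter on low counts. Car7, a cytosolic form known from brain, had 2, 14 and 0 counts in siUsf2 1 to 3 and 6, 10 and 3 in siControl 1 to 3, and Car15, a membrane form, had 9, 7 and 1 counts and 1, 7 and 2 counts in the same order of libraries.

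Profiles over the 6 libraries were compared by the root mean square difference of centred log2 CPM. The 9514 genes compared averaged 3 or more in log2 CPM, and predicted gene models, pseudogenes and genes without a symbol were left out. Those with the smallest difference from Car3 or Car9 were ranked. For Car3 these were Lgals3bp (0.0982), Cdkn1a (0.106), Heyl (0.112), Ano5 (0.124) and Apol9a (0.132). Cdkn1a, the cell cycle inhibitor p21, was at 328 and 328 CPM in siUsf2 1 and 2, 396 CPM in the library labelled siUsf2 3, and 713, 757 and 671 CPM in siControl 1 to 3. For Car9 they were Psrc1 (0.101), Plek (0.147), Lmod1 (0.194), Actg2 (0.209) and Ptgs2 (0.246). Ptgs2, the inducible cyclooxygenase, was at 70.7 and 59.7 CPM in siUsf2 1 and 2, 57.4 CPM in the library labelled siUsf2 3, and 26.0, 25.2 and 31.2 CPM in siControl 1 to 3. The members of the hypoxia-inducible list were not among the 5 nearest to Car9. The measure counts the size of a change as well as its direction. Among the list's genes that were compared, log2 fold changes over 5 libraries reached 0.93 (Pfkfb3), against 1.38 for Car9. Adm (0.95), Ankrd37 and Higd1a averaged below 3 in log2 CPM and were not compared. Nothing is therefore read from the absence of list genes.

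The wider set of genes around these enzymes was described by lists, with calls over 5 libraries. Of 23 hypoxia-inducible genes tested, 9 were called higher, 0 lower and 14 were not called, with a median log2 fold change of 0.37. Ndrg1, a stress-response gene, was at 116 ± 5.13 CPM in siUsf2 1 and 2 and 67.3 ± 3.35 CPM in siControl (SD, n = 2 and 3; log2 fold change 0.77, edgeR adjusted p = 2.81e-07). Pfkfb3, which makes the activator of phosphofructokinase, rose by 0.93 (adjusted p = 7.95e-05), Slc2a1, the glucose transporter GLUT1, by 0.47 (adjusted p = 3.18e-04) and Pdk1, the pyruvate dehydrogenase kinase, by 0.49 (adjusted p = 4.03e-04) on the log2 scale in edgeR.

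The list's summed level was 2722 to 2740 CPM in siUsf2 1 and 2, 6488 CPM in the library labelled siUsf2 3 and 2259 to 2440 CPM in siControl. The high sum in the library labelled siUsf2 3 lay mostly in 4 glycolytic genes, Pgk1, Ldha, Eno1 and Aldoa, picked out after their values were seen. These 4 summed to 757 and 768 CPM in siUsf2 1 and 2, 4271 CPM in the library labelled siUsf2 3, and 777, 796 and 666 CPM in siControl 1 to 3. The other 19 genes summed to 1983 and 1954 CPM in siUsf2 1 and 2, 2217 CPM in the library labelled siUsf2 3, and 1631, 1643 and 1592 CPM in siControl 1 to 3. Both of siUsf2 1 and 2 lay above every siControl library in 17 of the 23 genes, against 21.8% of all genes tested over 5 libraries. The library labelled siUsf2 3 alone lay above every siControl library in 21 of the 23, against 39.6% of all genes tested over 6 libraries. Ndrg1, Pfkfb3, Slc2a1 and Pdk1 were among the 21, at 161, 23.1, 283 and 113 CPM in that library. Compared with siUsf2 1 and 2, that library was higher in 13 of the 23 and lower in 8, Vegfa, Pdk1 and Pfkfb3 among the lower, and its Car9 level was that of siUsf2 1 and 2. Over 6 libraries 0 of the 23 were called by edgeR. The part of the hypoxia-inducible genes in the Car9 difference was not tested. The part of depth and of the share of pseudogenes in the values of the library labelled siUsf2 3 was also not tested.

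Of the 6 hypoxia sensing genes, Hif1a, the oxygen-regulated subunit of HIF1, rose to 483 ± 0.238 CPM in siUsf2 1 and 2, against 341 ± 20.9 CPM in siControl (SD, n = 2 and 3; log2 fold change 0.49, edgeR adjusted p = 1.55e-04), with 414 CPM in the library labelled siUsf2 3. Egln2, a prolyl hydroxylase that marks HIF for decay, fell to 35.8 ± 1.14 CPM in siUsf2 1 and 2, against 46.1 ± 7.76 CPM in siControl (SD, n = 2 and 3; log2 fold change -0.37, edgeR adjusted p = 0.0417). The library labelled siUsf2 3 went the other way for Egln2, at 57.7 CPM, above siControl. The other 4 (Epas1, Arnt, Vhl and Hif1an) were not called.

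Transport partners moved in both directions. Of 8 bicarbonate transporters tested, the sodium bicarbonate cotransporter Slc4a7 (log2 fold change 0.36, edgeR adjusted p = 0.00615) and the exchanger Slc4a8 (0.41, adjusted p = 0.0138) rose, the anion exchanger Slc4a3 (-0.41, adjusted p = 0.0289) fell, and 5 were not called. In the library labelled siUsf2 3, Slc4a7 (202 CPM) and Slc4a3 (37.8 CPM) lay within the siControl range and Slc4a8 (44.2 CPM) above it. Of 12 proton and lactate exporters tested, 3 rose, 1 fell and 8 were not called. For both lists, the shares over all genes tested were 4.97% called higher and 6.4% called lower. Slc16a3, the lactate exporter MCT4, rose to 76.2 ± 1.73 CPM in siUsf2 1 and 2, against 53.4 ± 5.02 CPM in siControl (SD, n = 2 and 3; log2 fold change 0.50, edgeR adjusted p = 7.13e-04), with 90.8 CPM in the library labelled siUsf2 3. Slc16a4 (0.89, adjusted p = 0.0128) and the proton exchanger Slc9a5 (0.46, adjusted p = 0.0151) also rose over 5 libraries in edgeR, and the endosomal exchanger Slc9a9 fell (-0.42, adjusted p = 0.00552). In the library labelled siUsf2 3 Slc16a4 stood at 2.05 CPM, lower than in siControl (3.95 ± 0.592 CPM, SD, n = 3). Slc9a5 was above siControl in that library, at 44.8 CPM, and Slc9a9 below it, at 41.6 CPM.

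Enzymes that use carbon dioxide or bicarbonate gave no call. Of the 8 tested (Pcx, Acaca, Acacb, Cad, Pcca, Pccb, Mccc1 and Mccc2), 0 passed the edgeR test over 5 libraries, with a median log2 fold change of -0.22. Over 6 libraries 0 genes of the transporter, exporter, enzyme and sensing lists were called by edgeR.

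**Figure D5:**
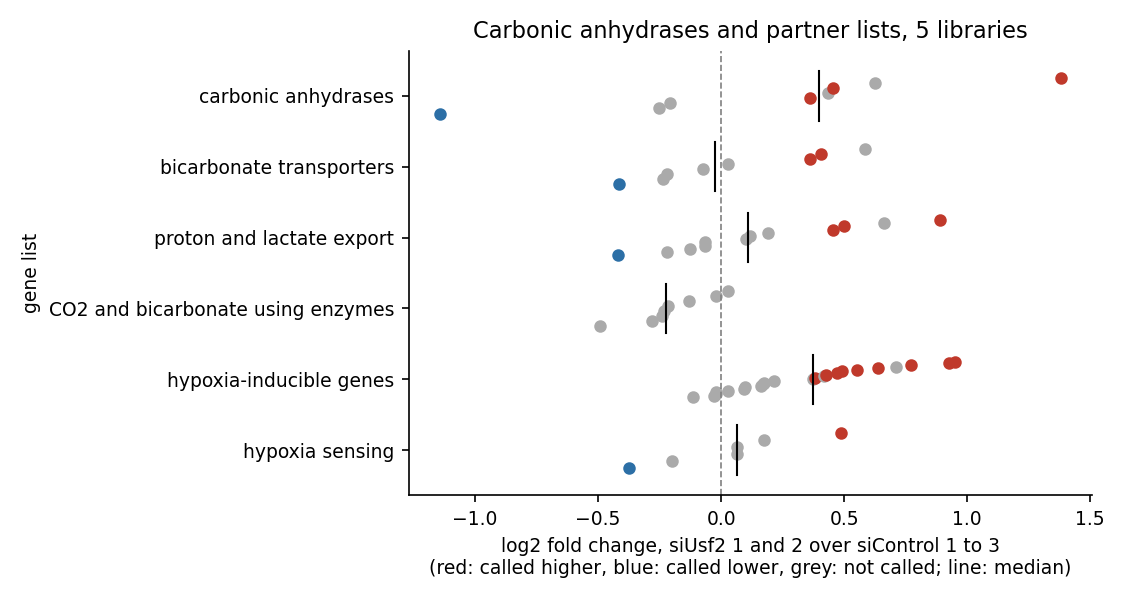
Log2 fold changes of siUsf2 1 and 2 over siControl 1 to 3 for the carbonic anhydrases and each partner list, 1 point a gene, red where called higher, blue where called lower and grey where not called, with the list's median as a black line. The carbonic anhydrases span -1.14 to 1.38, and the hypoxia-inducible genes have 9 red points and no blue one. Of all genes tested, 4.97% were called higher and 6.4% lower.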

How the data were processed

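RNA was measured in 6 libraries of C2C12 cells, 3 a group, with groups and replicate numbers from the sample titles. The labels do not say whether replicates were separate cultures, so the p-values reflect only the variation among these 6 libraries, possibly technical. The authors deposited whole-number read counts per Ensembl identifier, and a second deposited table, named for TPM, whose values are CPM. Dividing its values by the worth of 1 read gave whole reads for 100% of values (tolerance 1e-06), equal to the counts in every library; edgeR on these reads gave the same 855 higher and 1102 lower calls over 5 libraries. Per the submitters' processing notes the build was mm10 and the tools were FastQC, Trimmomatic, HISAT2, featureCounts and DESeq2; the strand setting is not given in the sources used here, nor are versions or the annotation.

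Symbols, coordinates and exonic lengths came from GENCODE M21 (GRCm38), and promoters from RefSeq (GRCm38.p6). The test was edgeR 4.0.16 in R 4.3.3 (filterByExpr, TMM, robust quasi-likelihood, two-sided, Benjamini-Hochberg over all genes tested), checked on simulated counts. SE is the log2 fold change over the root of F, and intervals are 95%. A count of 0 is read as up to 3 counts, and such limits cover counting error only. With minimap2 2.31 no transcript of another gene aligned to a member apart from the overlapping Gm12454 and Aph1a. Named genes are all members, the rest of the family, Usf2, up to 4 called genes of each partner list by p, and the 5 nearest profiles to Car3 and Car9. The members and lists were chosen with earlier results of these data known. Alternatives were other normalizations, DESeq2 1.42.0, limma 3.58.1 (voom, or log2 CPM with pseudocounts of 1 and 0.1), other filters, a threshold of 0.01, a replicate block and each library left out; the reads recovered from CPM and the addition of the third siUsf2 library to the family's sum and ratio were chosen after seeing the data.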

Additional observations from a re-analysis of the deposited data

How the results depend on the processing

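The comparison rests on 2 or 3 libraries a group, 1 siUsf2 library is shallow and against its label, and the tested members with the fewest counts (Car2, Car8, Car11 and Car12) have wide intervals. Over 5 libraries Car3, Car9 and Car13 kept their direction and call under all 19 alternatives run. Of the 19, the reads recovered from CPM equal the counts, so that alternative could only repeat the main result. Car5b was not called at an adjusted p below 0.01 (its edgeR adjusted p is 0.0224), without siUsf2 1 (0.557), without siControl 1 (0.0769) or without siControl 2 (0.0842). Car12 was called without siControl 3 (adjusted p 0.0200). The cause was not tested.

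Genes called higher over 5 libraries numbered 855, but 398 at an adjusted p below 0.01 and 349 to 1596 with a library left out, the most without siControl 3. Genes called lower numbered 1102, but 540 at 0.01 and 519 to 1964 with a library left out. Upper-quartile normalization turned the split to 1124 higher and 900 lower.

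In the comparison of 6 libraries, leaving out the library labelled siUsf2 3 gives the 5-library values, and the ranges here leave out each of the other 5. Over 6 libraries 1 member, Car9, was called higher by DESeq2, limma-voom (adjusted p 0.0301) and with no filter (0.00785). Members called lower were 0 with upper-quartile normalization (Car3 adjusted p 0.0513), at 0.01 and with any of the other 5 libraries left out, and 1 without the library labelled siUsf2 3. Genes called higher were 296 by DESeq2, 19 by limma-voom and 12 with no filter, against 0. Genes called lower, 7 in the main setting, were 410 by DESeq2, 87 by limma-voom, 104 with no filter, 4 with RLE and with either stricter filter, 3 with library size alone and with log2 CPM at either pseudocount, 0 with upper-quartile normalization and at 0.01, and 0 with any of the other 5 libraries left out (1102 without the library labelled siUsf2 3).

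Car2, at -0.015 over 6 libraries, turned to 0.022 with library size alone and 0.029 with upper-quartile normalization, and ranged over -0.065 to 0.19 with any of the other 5 libraries left out (-0.25 without the library labelled siUsf2 3). Car11, at 0.026, turned to -0.016 with DESeq2, -0.12 with limma-voom and -0.0035 with no filter, and ranged over -0.0063 to 0.21 with any of the other 5 left out (-0.21 without the library labelled siUsf2 3). With the library labelled siUsf2 3, the log2 ratio of Car3 to Car13 differed by -1.46 between groups, against -1.60, and the summed level per kb by -0.254, against 5.07.

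Same-numbered samples showed no sign of pairing in their deviations from the group means. These correlated at -0.003 and 0.002 over 5 libraries and at -0.0739, -0.00488 and -0.0727 over 6. Over 5 libraries the deviations of siUsf2 1 and 2 are mirror images, so this check cannot exclude pairing. With the replicate block 1719 genes were called higher and 2270 lower over 5 libraries, Car12 among the higher (edgeR adjusted p 0.0148). In that fit siControl 3 had no siUsf2 library in its block, so it added nothing to the fold changes. Leaving out siControl 3 without a block gave 1596 higher and 1964 lower. The larger counts are therefore not read as a sign of pairing. Over 6 libraries the block gave 0 genes and 0 members in either direction (Car3 edgeR adjusted p 0.739).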
